A study of Danio rerio with 6 samples.

Results

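The 70 genes described here carry out mitosis and cytokinesis, and were compared between GFP-positive and GFP-negative cells of zebrafish embryos. They were chosen by a rule on gene symbols, with earlier results of these data known: cdk1, the A- and B-type cyclins, cdc25, Aurora and Polo kinases, the spindle checkpoint, kinetochore proteins, mitotic kinesins, cytokinesis factors, condensin and top2a. The symbols matched 70 of the 26190 genes in the tables, with 181 of 51286 transcripts, and all 70 passed the filter on low counts. The match took in 3 genes whose function is another or a wider one, aurkaip1, cenpj and cenpv, which are described on their own. cenpa and incenp were not matched and are not analysed here.

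Both populations were sorted from embryos of the line Tg(krt4:GFP), staged at 4 somites. GFP is driven by sequence of krt4, a keratin gene, in this line, and the study found it at high level in the enveloping layer (EVL) or periderm, the superficial epithelium of the embryo. GFP-positive cells were those that passed the sort for fluorescence, and GFP-negative cells were those of the same embryos that did not, a mixture of tissues rather than a single cell type. There were 3 libraries of each population, taken from 3 separate incrosses, and every embryo carried the transgene. Estimated counts, in which reads shared by several transcripts are divided among them, totalled 40584467 to 49679602 per library. TPM, a transcript level scaled by transcript length and library, is used here for levels, whereas fold changes were fitted to counts. Every log2 fold change is GFP-positive over GFP-negative.

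The 12 EVL markers were all higher in GFP-positive cells, with summed levels of 5636 to 5861 TPM in GFP-positive libraries and 869 to 964 TPM in GFP-negative libraries. The largest part of both sums was krt4, at means of 2430 TPM in GFP-positive and 602 TPM in GFP-negative cells. The sort used GFP driven by krt4 sequence, so krt4 is no independent marker of it. The GFP-positive libraries also held markers of other tissues. Neural markers summed to 485 to 490 TPM in GFP-positive libraries and 902 to 917 TPM in GFP-negative libraries, and all 6 of them were called lower. The 4 notochord markers summed to 392 to 492 TPM in GFP-positive libraries and 121 to 122 TPM in GFP-negative libraries. Of them ta, shha and col2a1a were called higher, with col2a1a the largest part of the sum. The fourth, noto, was not called, at a mean of 12.9 TPM in GFP-positive cells, against 13.4 TPM in GFP-negative cells. The 3 germ cell markers summed to 15.3 to 17.1 TPM in GFP-positive libraries and 1.19 to 1.47 TPM in GFP-negative libraries. Of 6 markers of paraxial mesoderm and muscle, 2 were called higher and 3 lower. Among 4 of blood and endothelium the calls were 2 higher and 1 lower. Among 3 of the yolk syncytial layer they were 1 higher and 1 lower, and among 3 of endoderm 1 higher and 0 lower. None of these marker genes was listed at 0 in every library. The part of these cells in the results below was not tested.

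A cell enters mitosis when Cdk1, bound to an A- or B-type cyclin, is switched on. Condensin compacts the chromosomes, kinetochores built on the centromeres hold them to spindle microtubules, and a checkpoint delays their separation until every kinetochore is attached. The central spindle then directs a contractile ring that divides the cell. The mRNAs of many of these genes peak in G2 and M phase, whereas those of DNA replication factors peak around the G1 to S transition. In the early zebrafish embryo the EVL is a single sheet of cells. In RNA of whole populations, a larger share of cells in mitosis and more mRNA per cell cannot be told apart.

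Among the 70 genes, 32 were called higher and 16 lower in GFP-positive cells. A call required an adjusted p below 0.05 and a mean above 1 TPM in the population with the higher level. The share called higher was 45.7%, against 24.1% of all 20944 genes tested, and the share called lower was 22.9%, against 25.0% of all genes. The median log2 fold change was 0.14 (quartiles -0.15 and 0.38), beside 0.02 for all genes tested. The changes were small: 38 of the 48 genes called had an absolute log2 fold change under 0.5, and prc1b was the only one called with a change of at least 2-fold. Calls of that size made up 8.45% of all genes on the higher side and 3.93% on the lower side, where none of the 70 genes stood. The lower count was the less stable: it was 8 without GFP-positive replicate 2, 9 and 10 without GFP-negative replicates 3 and 2, and 10 with the replicate number as a block, while the higher count stayed between 28 and 33 in these fits and the others that left out 1 library.

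**Figure D1:**
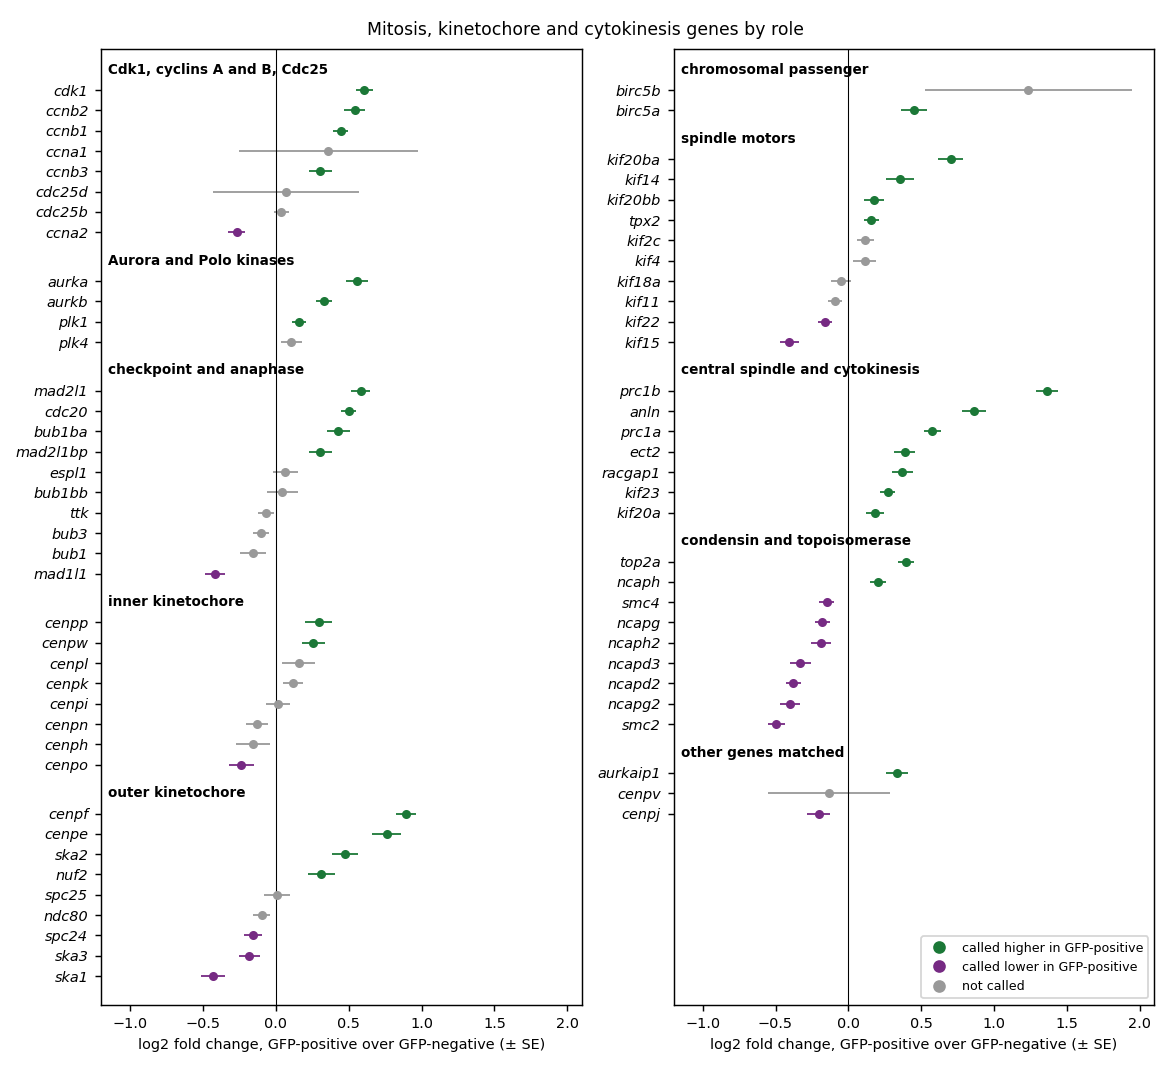
Log2 fold change (GFP-positive over GFP-negative, x axis) with its standard error for each of the 70 genes, grouped by role, from the edgeR fit to estimated counts of 3 GFP-positive and 3 GFP-negative libraries. All 7 genes of the central spindle and cytokinesis lie right of 0 and are called, 7 of the 9 genes of condensin and topoisomerase are called lower, and the longest error bars belong to birc5b, ccna1, cdc25d and cenpv, all with a mean under 5 TPM.

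The balance of calls depended on the scale. When log2(TPM + 1) was tested with limma, 16 of the 70 genes were called higher and 17 lower, their median log2 difference was -0.016, and 17.8% and 27.9% of all genes were called higher and lower. On that scale 3727 of all genes were called higher and 5843 lower, against 5041 and 5229 from counts, and the median of all genes moved to -0.061. With log2(TPM + 0.1) it moved to -0.087, a shift of over 0.1 from the count fit. There 14 members were called higher and 16 lower, beside 16.4% and 25.6% of all genes. After the TPM values had been scaled between libraries with TMM factors, an alternative chosen after seeing the data, 25 of the 70 genes were called higher and 11 lower, beside 22.4% of all genes in each direction. In every one of the 19 settings tried, anln, aurka, aurkb, birc5a, ccnb1, ccnb2, ccnb3, cdk1, cenpe, cenpf, mad2l1, prc1a, prc1b and ska2 were called higher. In each of them ccna2, kif15, mad1l1, ncapd2, ncapd3, ncapg2, ska1 and smc2 were called lower. The share of all genes called in every setting was not counted.

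The Cdk1 kinase and its B-type cyclins were higher in GFP-positive cells, whereas the A-type cyclin ccna2 was lower. Of 8 genes in this group, 4 rose and 1 fell, shares of 50% and 12.5% beside 24.1% and 25.0% of all genes, with a median log2 fold change of 0.33. cdk1 (ENSDARG00000087554), the kinase that drives entry into mitosis, was measured at 283, 275 and 274 TPM in GFP-positive libraries, against 194, 204 and 189.9 TPM in GFP-negative libraries. All GFP-positive libraries were above all GFP-negative ones, and the log2 fold change was 0.61 ± 0.057 (SE, edgeR adjusted p = 6.02e-07). ccnb1 (ENSDARG00000051923), the main mitotic cyclin, had 166, 158 and 164 TPM in GFP-positive libraries, against 122, 128 and 119 TPM in GFP-negative libraries, again without overlap, and rose by 0.45 ± 0.051 on the log2 scale (adjusted p = 4.51e-06). ccnb2, a second B-type cyclin, had 41.0, 40.5 and 43.3 TPM in GFP-positive libraries, against 31.0, 33.3 and 31.8 TPM in GFP-negative libraries, and ccnb3, a B-type cyclin of its own class, had 49.4, 52.3 and 49.0 TPM in GFP-positive libraries, against 42.3, 44.0 and 42.6 TPM in GFP-negative libraries. Neither overlapped between the populations, and both rose, by 0.54 ± 0.070 and 0.31 ± 0.078 on the log2 scale (adjusted p = 1.61e-05 and 0.00416).

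ccna2 (ENSDARG00000011094), the cyclin that acts in S phase as well as at mitotic entry, had 188, 187 and 179 TPM in GFP-positive libraries, against 242, 241 and 239.6 TPM in GFP-negative libraries. Its GFP-positive libraries were all below the GFP-negative ones, and it fell, with a log2 fold change of -0.27 ± 0.057 (SE, edgeR adjusted p = 0.00119). As a share of ccna2 and ccnb1 TPM together, ccna2 held 53.2 ± 0.996% in GFP-positive cells, against 66.2 ± 0.754% in GFP-negative cells (SD, n = 3 each). By contrast, ccnb2 held 20.4 ± 0.512% of the summed ccnb1 and ccnb2 TPM in GFP-positive cells, against 20.7 ± 0.380% in GFP-negative cells. cdc25b, a phosphatase that activates Cdk1, had 119, 128 and 135 TPM in GFP-positive libraries, against 139, 133 and 128 TPM in GFP-negative libraries, with the populations overlapping, and its log2 fold change of 0.038 ± 0.052 did not pass the test (adjusted p = 0.558). cdc25d and the meiotic cyclin ccna1 were scarce, at 0.245 to 0.572 TPM and 0.0840 to 0.739 TPM in GFP-positive libraries and 0.292 to 0.503 TPM and 0.196 to 0.489 TPM in GFP-negative libraries, where no difference could be seen at this depth.

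Both Aurora kinases were higher in GFP-positive cells. aurka, which matures centrosomes and spindle poles, had 117, 117 and 109 TPM in GFP-positive libraries, against 85.7, 94.3 and 87.3 TPM in GFP-negative libraries, and its log2 fold change was 0.56 ± 0.073 (SE, edgeR adjusted p = 1.87e-05). aurkb (ENSDARG00000037640), the kinase of the chromosomal passenger complex, had 369, 367 and 367 TPM in GFP-positive libraries, against 318, 316 and 315 TPM in GFP-negative libraries. In TPM the libraries of each population lay within a few TPM of each other, and the log2 ratio of mean TPM was 0.22. Normalised counts spread more, at 278, 272 and 253 CPM in GFP-positive libraries, against 220, 206 and 213 CPM in GFP-negative libraries. From counts the log2 fold change was 0.33 ± 0.054 (adjusted p = 1.43e-04). plk1, the Polo kinase of mitotic entry and cytokinesis, was among the most abundant genes of the set but gave different answers by scale. Its normalised counts were 539, 519.6 and 503 CPM in GFP-positive libraries, against 456, 469 and 473 CPM in GFP-negative libraries, and it was called higher (log2 fold change 0.16 ± 0.047, adjusted p = 0.0102), although without GFP-negative replicate 1 the value of 0.14 no longer passed (adjusted p = 0.0533). In TPM it had 295, 285 and 297 TPM in GFP-positive libraries, against 274, 310.3 and 304 TPM in GFP-negative libraries, the populations overlapped, and the log2(TPM + 1) difference was -0.017. These TPM values were not scaled between libraries. After TMM scaling of TPM, no gene called from counts changed sign. plk4, which starts centriole duplication, had 18.6, 19.5 and 23.2 TPM in GFP-positive libraries, against 20.7, 20.5 and 20.6 TPM in GFP-negative libraries and was not called (log2 fold change 0.11 ± 0.070, adjusted p = 0.228).

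Among 10 genes of the spindle checkpoint and of anaphase, 4 rose, 1 fell and 5 were not called, shares of 40% higher and 10% lower beside 24.1% and 25.0% of all genes. mad2l1 (ENSDARG00000004713), the checkpoint protein that holds Cdc20 inactive, had the highest mean level of all 70 genes and was measured at 429, 422 and 394 TPM in GFP-positive libraries, against 302, 286 and 295 TPM in GFP-negative libraries. Its populations did not overlap, and the log2 fold change was 0.58 ± 0.067 (SE, edgeR adjusted p = 4.91e-06). cdc20, the activator of the anaphase-promoting complex, had 109.7, 106 and 116 TPM in GFP-positive libraries, against 102, 102 and 101 TPM in GFP-negative libraries. The difference in TPM was small, but normalised counts were 174, 166 and 166 CPM in GFP-positive libraries, against 123, 117 and 118 CPM in GFP-negative libraries, and on that scale cdc20 rose by 0.50 ± 0.054 (adjusted p = 2.54e-06). The log2(TPM + 1) difference of 0.12 did not pass (adjusted p = 0.205).

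The checkpoint genes bub1ba and mad2l1bp were also called higher, both without overlap. The gene bub1ba, which encodes a BubR1-type protein of the complex that inhibits Cdc20, rose by 0.43 ± 0.078, and mad2l1bp, known in mammals to silence the checkpoint, rose by 0.31 ± 0.081 on the log2 scale (edgeR adjusted p = 3.61e-04 and 0.00555). mad1l1, the partner that brings Mad2 to unattached kinetochores, went the other way, at 13.9, 14.3 and 15.0 TPM in GFP-positive libraries, against 20.5, 21.7 and 21.1 TPM in GFP-negative libraries. It fell, with a log2 fold change of -0.42 ± 0.067 (adjusted p = 1.25e-04). The kinases bub1 and ttk, the adaptor bub3, the second BubR1-type gene bub1bb and the separase gene espl1 were not called, with log2 fold changes from -0.16 (bub1) to 0.066 (espl1). For bub1, GFP-positive replicate 3 stood at 37.9 TPM, beside 27.0 and 28.1 TPM in GFP-positive replicates 1 and 2 and 35.6 to 41.0 TPM in GFP-negative cells. Without that library bub1 passed as lower (log2 fold change -0.28, adjusted p = 3.40e-04).

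The inner kinetochore, which stays on the centromere throughout the cell cycle, differed little. Of its 8 genes 2 were called higher, 1 lower and 5 not called, shares of 25.0% and 12.5% beside 24.1% and 25.0% of all genes. Without GFP-positive replicate 2 none of the 8 was called, and without GFP-negative replicate 2 or 3 only 1 was, as higher. The summed level was 288 ± 7.18 TPM in GFP-positive cells, against 285 ± 4.13 TPM in GFP-negative cells (SD, n = 3 each). cenpw, a histone-fold protein that binds centromeric DNA with CENP-T, was the most abundant, at 110.3, 116 and 103 TPM in GFP-positive libraries, against 92.0, 93.0 and 102 TPM in GFP-negative libraries. It was called higher (log2 fold change 0.26 ± 0.076, edgeR adjusted p = 0.0108), but not without GFP-positive replicate 2 (adjusted p = 0.0618) or without GFP-negative replicate 2 (adjusted p = 0.0651). cenpk, the next in level, had 59.1, 58.5 and 60.2 TPM in GFP-positive libraries, against 57.0, 56.6 and 56.5 TPM in GFP-negative libraries, which did not overlap, yet its log2 fold change of 0.12 ± 0.070 did not pass (adjusted p = 0.183). cenpp and cenpo, partners in one subcomplex, were called in opposite directions, at 0.29 ± 0.090 and -0.24 ± 0.087 (adjusted p = 0.0137 and 0.0326), calls that stood in 14 and 11 of the 19 settings.

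In the outer kinetochore, which binds microtubules, the long proteins CENP-E and CENP-F showed the largest rises, while subunits of the Ndc80 and Ska complexes moved in both directions. Of 9 genes, 4 rose and 3 fell, shares of 44.4% and 33.3% beside 24.1% and 25.0% of all genes. Only 1 was called lower with the replicate number as a block and in 5 of the 6 fits that left out 1 library, and 2 without GFP-positive replicate 1. cenpf (ENSDARG00000055133), a large coiled-coil protein of G2 and mitosis, had 13.2, 14.5 and 16.3 TPM in GFP-positive libraries, against 8.59, 9.29 and 7.86 TPM in GFP-negative libraries. Its log2 fold change of 0.89 ± 0.070 was the second largest among the genes called (SE, edgeR adjusted p = 9.92e-08). cenpe (ENSDARG00000063385), the kinesin that brings chromosomes to the spindle equator, had 30.8, 28.8 and 32.5 TPM in GFP-positive libraries, against 17.3, 17.9 and 17.0 TPM in GFP-negative libraries, again with no overlap, and rose by 0.76 ± 0.10 on the log2 scale (adjusted p = 2.09e-05).

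Within the Ska complex, which couples kinetochores to shortening microtubules, ska2 was higher and ska1 and ska3 were lower. ska2 had 63.8, 65.3 and 60.2 TPM in GFP-positive libraries, against 52.1, 44.6 and 49.1 TPM in GFP-negative libraries (log2 fold change 0.48 ± 0.087, edgeR adjusted p = 3.60e-04). ska1 had 25.8, 25.3 and 26.4 TPM in GFP-positive libraries, against 39.9, 36.6 and 38.0 TPM in GFP-negative libraries (log2 fold change -0.43 ± 0.085, adjusted p = 6.25e-04). In both genes the populations stood apart, in opposite directions, and ska3 just passed as lower (-0.18 ± 0.072, adjusted p = 0.0481), in 9 of the 19 settings. Within the Ndc80 complex, the main microtubule anchor, nuf2 was called higher (0.31 ± 0.092, adjusted p = 0.0103) and spc24 lower (-0.16 ± 0.062, adjusted p = 0.0432). These calls stood in 13 and 9 of the 19 settings. In TPM nuf2 overlapped, at 42.3, 42.6 and 39.7 TPM in GFP-positive libraries, against 37.5, 39.6 and 44.6 TPM in GFP-negative libraries. ndc80 and spc25 were not called, with 49.3, 47.0 and 50.3 TPM in GFP-positive libraries, against 54.5, 59.1 and 56.2 TPM in GFP-negative libraries for ndc80 and a log2 fold change of 0.0080 for spc25. The call of spc24 was lost, at adjusted p of 0.0734 to 0.121, when any 1 library other than GFP-positive replicate 1 was left out.

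The 2 survivin genes stand for the chromosomal passenger complex, which corrects faulty attachments. birc5a had 37.9, 38.7 and 34.8 TPM in GFP-positive libraries, against 31.4, 28.5 and 28.1 TPM in GFP-negative libraries and was called higher (log2 fold change 0.45 ± 0.088, SE, edgeR adjusted p = 6.60e-04). Its paralogue birc5b was near the detection limit, at 1.12, 2.78 and 0.823 TPM in GFP-positive libraries, against 1.41, 0.337 and 0.408 TPM in GFP-negative libraries. The populations overlapped, and its log2 fold change of 1.23 ± 0.71, large with a large error, was not called (adjusted p = 0.161).

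Of the 10 genes of spindle motors and tpx2, 4 were called higher, 2 lower and 4 not called, shares of 40% higher and 20% lower beside 24.1% and 25.0% of all genes. Higher calls dropped to 2 without GFP-negative replicate 1, and lower calls to 1 without GFP-positive replicate 2 or GFP-negative replicate 3. kif20ba, a kinesin whose mammalian counterpart acts in late mitosis, had normalised counts of 30.4, 31.3 and 35.9 CPM in GFP-positive libraries, against 20.1, 20.7 and 19.2 CPM in GFP-negative libraries. It rose by 0.70 ± 0.085 on the log2 scale (SE, edgeR adjusted p = 7.95e-06), whereas in TPM, at 7.55, 10.3 and 10.7 TPM in GFP-positive libraries, against 8.05, 6.68 and 6.56 TPM in GFP-negative libraries, GFP-positive replicate 1 lay within the GFP-negative range and the log2(TPM + 1) difference of 0.37 did not pass (adjusted p = 0.0636). kif14, a kinesin of late cytokinesis, was also called higher, at 0.35 ± 0.10 (adjusted p = 0.00685). kif15 (ENSDARG00000012073), which can hold spindle poles apart alongside Kif11, was lower, with 25.6, 28.4 and 31.2 TPM in GFP-positive libraries, against 39.9, 46.2 and 41.1 TPM in GFP-negative libraries. There was no overlap, and its log2 fold change was -0.41 ± 0.065 (adjusted p = 1.06e-04).

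kif22, a chromokinesin that pushes chromosome arms outward, had 121, 121 and 140.2 TPM in GFP-positive libraries, against 157, 165 and 161 TPM in GFP-negative libraries. It was called lower (log2 fold change -0.16 ± 0.050, edgeR adjusted p = 0.0138), but not without GFP-positive replicate 2 (adjusted p = 0.0760) or without GFP-negative replicate 3 (adjusted p = 0.0595). kif11, the motor that makes the spindle bipolar, had 134, 127 and 129.7 TPM in GFP-positive libraries, against 133, 142 and 135 TPM in GFP-negative libraries and was not called (-0.090 ± 0.050, adjusted p = 0.142). It passed as lower only without GFP-positive replicate 3 (-0.12, adjusted p = 0.0181). tpx2, which activates Aurora A and nucleates spindle microtubules, was the only gene of the set whose call changed sign among the 19 settings. Its normalised counts were 288, 273 and 269.6 CPM in GFP-positive libraries, against 245, 244 and 255 CPM in GFP-negative libraries, and it was called higher at 0.16 ± 0.051 (adjusted p = 0.0167), a call lost without GFP-positive replicate 1, GFP-negative replicate 1 or GFP-negative replicate 2 (adjusted p = 0.0660 to 0.0869). In TPM it had 223, 215 and 235 TPM in GFP-positive libraries, against 228, 239.9 and 242 TPM in GFP-negative libraries, and with its most abundant transcript alone it was called lower (log2 fold change -0.26, adjusted p = 0.00951).

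**Figure D2:**
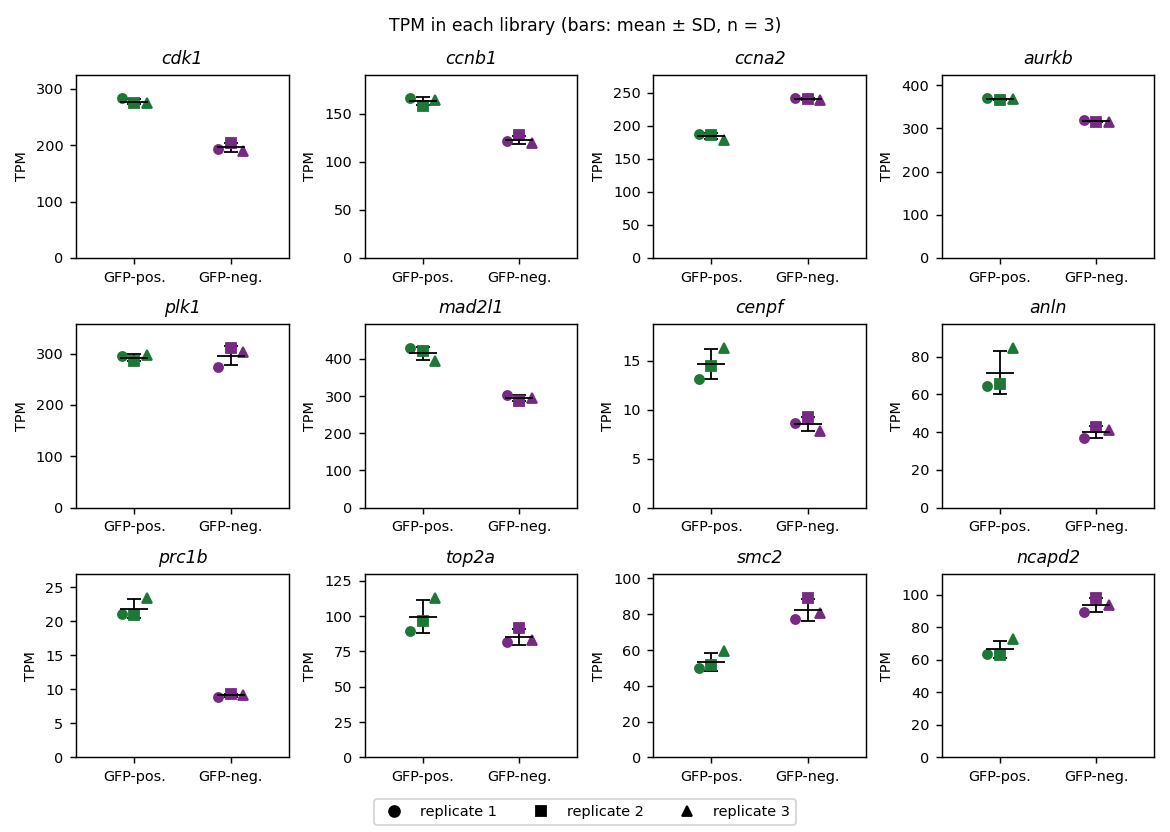
Level in TPM (y axis, from 0) of 12 genes in each of 3 GFP-positive (left, green) and 3 GFP-negative (right, purple) libraries, with mean and SD; symbols mark replicate numbers. cdk1, ccnb1, aurkb, mad2l1, cenpf, anln and prc1b are higher in every GFP-positive library, ccna2, smc2 and ncapd2 are lower in every one, and plk1 and top2a overlap in TPM.

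All 7 genes of the central spindle and cytokinesis were called higher, with a median log2 fold change of 0.39. That share of 100% stood beside 24.1% of all genes, and 6 of the 7 were called higher without GFP-positive replicate 2. The share depends on the grouping, which was drawn with earlier results known. The kinesin genes kif4, kif14, kif20ba and kif20bb were counted with the spindle motors. Of these, kif14, kif20ba and kif20bb were called higher, and kif4 was not called (log2 fold change 0.11 ± 0.077, edgeR adjusted p = 0.243). The call of kif20bb (edgeR adjusted p = 0.0492) stood in only 6 of the 19 settings, those of kif14 and kif20ba in 16 and 17. In TPM the populations overlapped for each of these genes. prc1b (ENSDARG00000005993), which with prc1a bundles the antiparallel microtubules of the central spindle, had 21.1, 20.9 and 23.4 TPM in GFP-positive libraries, against 8.85, 9.31 and 9.25 TPM in GFP-negative libraries. The GFP-positive libraries were more than 2-fold above the GFP-negative ones, and the log2 fold change of 1.36 ± 0.077 was the largest of the set (SE, edgeR adjusted p = 3.00e-09). prc1a had 55.2, 56.3 and 56.6 TPM in GFP-positive libraries, against 39.8, 40.9 and 41.5 TPM in GFP-negative libraries and rose by 0.58 ± 0.059 (adjusted p = 1.63e-06). prc1b therefore made up 28.0 ± 1.13% of the summed prc1a and prc1b TPM in GFP-positive cells, against 18.3 ± 0.201% in GFP-negative cells (SD, n = 3 each). anln (ENSDARG00000060917), the anillin scaffold that links actin, myosin and RhoA in the contractile ring, had 64.3, 65.8 and 84.5 TPM in GFP-positive libraries, against 36.9, 43.0 and 40.9 TPM in GFP-negative libraries. GFP-positive replicate 3 was the highest, but replicates 1 and 2 were also above every GFP-negative library, and the log2 fold change was 0.86 ± 0.084 (adjusted p = 9.17e-07).

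The other 4 cytokinesis genes were apart in normalised counts but not in TPM. ect2, the exchange factor that activates RhoA at the equator, had normalised counts of 50.1, 46.5 and 51.9 CPM in GFP-positive libraries, against 37.5, 39.6 and 36.5 CPM in GFP-negative libraries, and rose by 0.39 ± 0.070 on the log2 scale (SE, edgeR adjusted p = 3.41e-04). racgap1 and kif23, which together form centralspindlin and recruit Ect2, rose by 0.37 ± 0.070 and 0.27 ± 0.052 (adjusted p = 4.34e-04 and 5.69e-04). kif20a, the kinesin that carries the passenger complex to the central spindle, rose by 0.19 ± 0.062 (adjusted p = 0.0201), a call that stood in 11 of the 19 settings. In TPM, racgap1 had 22.9, 23.8 and 31.7 TPM in GFP-positive libraries, against 24.0, 24.9 and 23.8 TPM in GFP-negative libraries, and GFP-positive replicate 3 alone was above the GFP-negative libraries. With log2(TPM + 1), 3 of the 7 genes (anln, prc1a and prc1b) were called higher, beside 17.8% of all genes on that scale. After TMM scaling 5 were called, beside 22.4% of all genes in each direction. The summed level of the 7 genes was 299 ± 26.4 TPM in GFP-positive cells, against 229 ± 7.95 TPM in GFP-negative cells.

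Condensin went the other way. All 9 genes of this group were called, 7 of them lower, at 77.8% of the group beside 25.0% of all genes, with a median log2 fold change of -0.19. The lower calls numbered 4 without GFP-positive replicate 2 and 5 without GFP-negative replicate 2 or 3 or with the replicate number as a block. smc2 (ENSDARG00000017744), an ATPase core subunit of both condensins, had 49.9, 51.6 and 59.3 TPM in GFP-positive libraries, against 77.1, 89.1 and 80.7 TPM in GFP-negative libraries. There was no overlap, and its log2 fold change of -0.49 ± 0.056 was the most negative of the set (SE, edgeR adjusted p = 4.57e-06). Its partner smc4 was called lower by a small margin, at -0.15 ± 0.053 (adjusted p = 0.0274), with 58.2, 57.7 and 67.4 TPM in GFP-positive libraries, against 66.9, 76.8 and 71.6 TPM in GFP-negative libraries. The call of smc4 was lost in 4 of 6 fits that left out 1 library, those without GFP-positive replicate 1 or 2 or without GFP-negative replicate 2 or 3 (adjusted p = 0.0582 to 0.122).

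In condensin I, which acts on chromosomes after the nuclear envelope breaks down, ncapd2 and ncapg were lower and ncaph higher. ncapd2 (ENSDARG00000005058) had 63.6, 63.1 and 72.6 TPM in GFP-positive libraries, against 89.4, 97.9 and 93.8 TPM in GFP-negative libraries (log2 fold change -0.38 ± 0.051, edgeR adjusted p = 2.30e-05). ncapg had 97.4, 96.2 and 107 TPM in GFP-positive libraries, against 117, 127 and 126 TPM in GFP-negative libraries (log2 fold change -0.18 ± 0.050, adjusted p = 0.00766), a call that did not pass without GFP-positive replicate 2 (adjusted p = 0.0520). ncaph had normalised counts of 156, 154 and 155 CPM in GFP-positive libraries, against 129.7, 136 and 138 CPM in GFP-negative libraries and was called higher at 0.20 ± 0.053 (adjusted p = 0.00466), with overlap in TPM. In condensin II, which acts in the nucleus from prophase, all 3 subunits were lower: ncapd3, ncapg2 and ncaph2, at -0.33 ± 0.072, -0.40 ± 0.067 and -0.19 ± 0.067 (adjusted p = 0.00139, 1.70e-04 and 0.0284), the last in 12 of the 19 settings. ncapg2 had 23.9, 22.4 and 26.9 TPM in GFP-positive libraries, against 36.8, 37.1 and 37.2 TPM in GFP-negative libraries, with the GFP-negative libraries almost equal to each other. Its share of the summed ncapg and ncapg2 TPM was 19.5 ± 0.595% in GFP-positive cells, against 23.1 ± 0.772% in GFP-negative cells, and that of ncaph2 in the ncaph pair was 20.2 ± 0.229% in GFP-positive cells, against 25.0 ± 1.12% in GFP-negative cells. The share of ncapd3 in the ncapd2 pair was not lower, at 30.7 ± 1.45% in GFP-positive cells, against 29.8 ± 1.41% in GFP-negative cells, with overlap.

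top2a, the topoisomerase that untangles sister chromatids, rose while most of condensin fell. Its normalised counts were 338, 351 and 376 CPM in GFP-positive libraries, against 264, 281 and 265 CPM in GFP-negative libraries, and its log2 fold change was 0.40 ± 0.054 (SE, edgeR adjusted p = 2.73e-05). In TPM it had 89.6, 96.6 and 113 TPM in GFP-positive libraries, against 81.4, 91.8 and 82.8 TPM in GFP-negative libraries. GFP-positive replicate 1 then lay within the GFP-negative range, and the log2(TPM + 1) difference of 0.22 did not pass (adjusted p = 0.125). The summed level of the 9 genes was 533 ± 43.8 TPM in GFP-positive cells, against 631 ± 30.6 TPM in GFP-negative cells (SD, n = 3 each). On log2(TPM + 1), 6 of them were called, each lower, beside 27.9% of all genes called lower on that scale.

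The 3 genes matched by name only showed no common direction. aurkaip1, which encodes a mitochondrial ribosomal protein first described as a partner of Aurora A, had 117, 123 and 116 TPM in GFP-positive libraries, against 105, 92.2 and 102 TPM in GFP-negative libraries and was called higher (0.33 ± 0.077, edgeR adjusted p = 0.00210). cenpj, a centriole assembly factor, had 7.74, 7.21 and 8.40 TPM in GFP-positive libraries, against 9.60, 9.94 and 9.66 TPM in GFP-negative libraries and was called lower (-0.20 ± 0.079, adjusted p = 0.0417), but not in 4 of 6 fits that left out 1 library, those without GFP-positive replicate 2 or any 1 GFP-negative replicate (adjusted p = 0.0811 to 0.168). cenpv was low, at 2.61 to 4.04 TPM in GFP-positive libraries and 2.22 to 4.64 TPM in GFP-negative libraries, and was not called. Without these genes the set had 31 calls higher and 15 lower among 67.

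Levels and separation were described for each gene as well. The mean over the 6 libraries was above 100 TPM for 17 of the 70 genes, between 10 and 100 TPM for 47 and under 10 TPM for 6, of which 3 were under 2 TPM. The median coefficient of variation over replicates was 6.06% in GFP-positive cells, against 4.43% in GFP-negative cells. In normalised counts the GFP-positive and GFP-negative libraries stood apart in all 48 genes called. The calls came from a test on the same counts, so this separation was no independent support for them. Its share over all genes was not counted. In TPM all GFP-positive libraries were above all GFP-negative ones in 21 genes, beside 24.2% of all genes, and below them in 18, beside 34.3% of all genes. The 13 genes called with overlap in TPM were 12 of those called higher and 1 of those called lower. Summed over the 70 genes, the level was 4897, 4886 and 5063 TPM in GFP-positive cells, against 4713, 4867 and 4791 TPM in GFP-negative cells, a ratio of the means of 1.03.

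**Figure D3:**
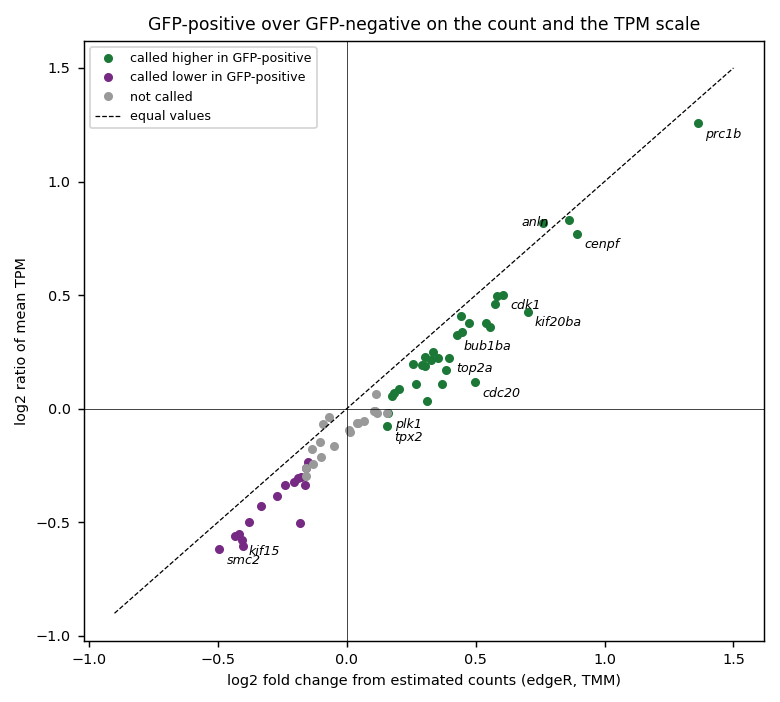
Log2 fold change from the edgeR fit to estimated counts (x axis) against the log2 ratio of mean TPM (y axis), both GFP-positive over GFP-negative, for the 67 genes above 2 TPM; the dashed line marks equal values. Below the line lie 64 of the 67 genes. cdc20 stands at 0.50 on the count scale and 0.12 in TPM, and 11 genes change sign, of which 2 (tpx2 and plk1) were called. The TPM values were not scaled between libraries.

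Transcripts of one gene shifted in a few members. In 7 of 50 genes with several transcripts, a transcript's mean share of the gene's TPM moved by at least 15 percentage points between populations. Only genes above 10 TPM in both populations could be counted as moved. The leading transcript was the same in both populations in 64 of the 70 genes. That count takes in the genes with only 1 transcript, for which no other outcome was possible. Neither count was made over all genes. In bub1ba, the transcript ENSDART00000114313 held 86.6, 92.4 and 96.0% of the gene's TPM in GFP-positive libraries, against 55.2, 60.0 and 47.3% in GFP-negative cells. ENSDART00000138976 held 11.6% and 5.32% of the gene's TPM in GFP-positive replicates 1 and 2 and next to nothing in GFP-positive replicate 3, against 43.6, 37.1 and 52.7% in GFP-negative libraries. The populations did not overlap for either transcript.

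In cdc20, ENSDART00000160060 held 95.2, 97.9 and 91.2% of the gene's TPM in GFP-positive libraries, against 72.3, 71.7 and 66.4% in GFP-negative cells, and ENSDART00000161106 held 0.993 to 3.69% in GFP-positive libraries and 24.3 to 26.8% in GFP-negative libraries. The count and TPM results of cdc20 differed, as given above. TPM weights each transcript by its length, and the part of the shift in that difference was not tested. In ect2, ENSDART00000011087 held 40.9, 47.6 and 52.2% of the gene's TPM in GFP-positive libraries, against 66.2, 65.0 and 68.1% in GFP-negative cells. In kif15, ENSDART00000161125 held 38.9, 43.1 and 55.8% of the gene's TPM in GFP-positive libraries, against 64.0, 73.2 and 61.2% in GFP-negative cells. Both shares were lower in every GFP-positive library. With the leading transcript alone, ect2 had a log2 fold change of -0.21 (edgeR adjusted p = 0.161), against 0.39 for the whole gene. In ska3, nuf2 and top2a shares moved as well, with overlap between the populations in ska3 and nuf2 and in 1 of the 2 top2a transcripts. These shares, like those between paralogues, rest on how kallisto divided reads among similar transcripts.

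**Figure D4:**
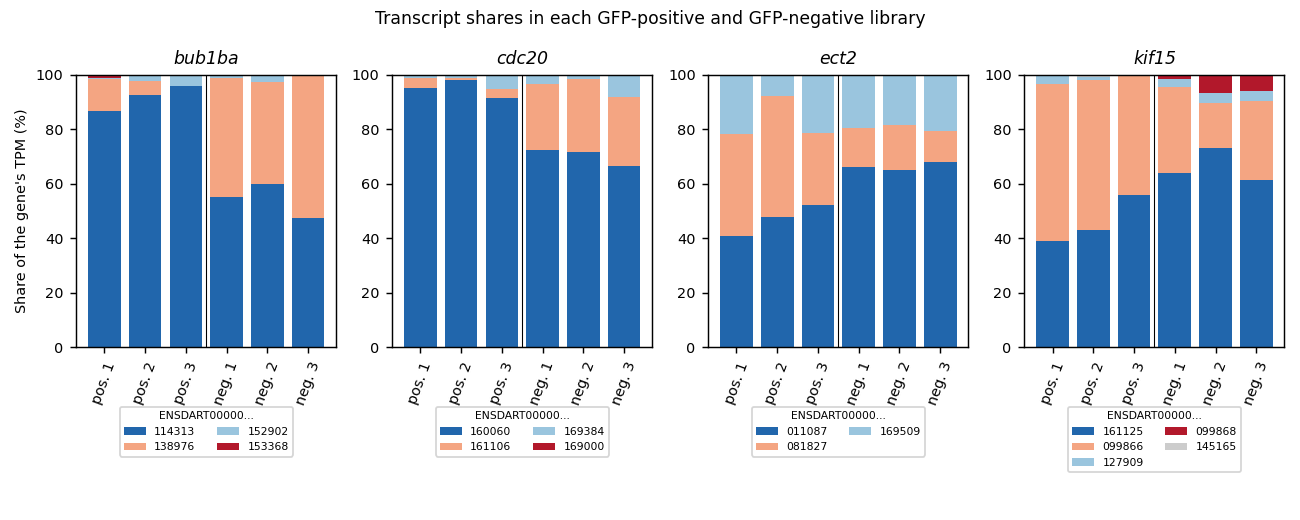
Share of the gene's TPM in each transcript (stacked bars, %) of bub1ba, cdc20, ect2 and kif15 in 3 GFP-positive (left of the line) and 3 GFP-negative (right) libraries; legends give the last 6 digits of the Ensembl transcript identifier. The transcript drawn at the bottom takes more of the total in every GFP-positive library for bub1ba and cdc20, and less for ect2 and kif15.

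Genes that work with this set but were not matched by symbol were counted from lists of known function. Of 35 other mitotic genes tested, 19 were called higher and 6 lower, with a median log2 fold change of 0.21, beside 24.1% and 25.0% of all genes. The Cdk1 partner cks2 had 34.4, 36.2 and 38.0 TPM in GFP-positive libraries, against 14.7, 16.5 and 15.7 TPM in GFP-negative libraries (log2 fold change 1.30 ± 0.11, edgeR adjusted p = 2.75e-07). The next largest rises were those of the spindle pole gene aspm, the kinase nek2 and the spindle gene hmmr, with log2 fold changes of 0.88, 0.87 and 0.62. The 6 called lower were ckap5, a microtubule polymerase (-0.39), cdca7a (-0.37), dsn1 of the outer kinetochore (-0.36), the transcription factor gene mybl2b (-0.32), gtse1 (-0.26) and the kinase gene pbk (-0.18). On log2(TPM + 1), 12 of the 35 were called higher and 8 lower, beside 17.8% and 27.9% of all genes on that scale.

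Of 16 subunits and activators of the anaphase-promoting complex (APC/C), the ligase that Cdc20 activates, 6 were called lower (37.5%) and none higher by edgeR, beside 25.0% and 24.1% of all genes (median -0.086). At an unadjusted p below 0.05, 7 were lower and 1 was higher, and DESeq2 called 7 lower and 0 higher. The absence of higher calls rested on single libraries: 3 subunits (anapc10, anapc13 and cdc23) were called higher without GFP-positive replicate 3, and 1 (cdc23) without GFP-positive replicate 1 or GFP-negative replicate 1. anapc4 had 7.77, 6.82 and 7.52 TPM in GFP-positive libraries, against 21.4, 19.6 and 19.6 TPM in GFP-negative libraries (log2 fold change -1.36 ± 0.084, edgeR adjusted p = 9.03e-09). Thus cdc20 was higher while anapc4 and anapc5 (-0.93) were lower. Cohesin holds sister chromatids together until separase cuts it. Of 17 genes of cohesin and its regulators, 12 were called lower (70.6%) and none higher by edgeR, beside 25.0% and 24.1% of all genes (median -0.35). The counts were 12 lower and 0 higher both at an unadjusted p below 0.05 and with DESeq2, which kept 18 genes. Lower calls fell to 9 of 18 without GFP-positive replicate 2. They were 11 of 17 without GFP-positive replicate 1 and with the replicate number as a block. The core subunit smc3, related to the condensin subunits smc2 and smc4, had a log2 fold change of -0.39 ± 0.055.

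DNA replication genes were mostly lower in GFP-positive cells. Of 45 tested, 28 were called lower (62.2%) and 3 higher, beside 25.0% and 24.1% of all genes, with a median log2 fold change of -0.40. The genes mcm2 to mcm7, which encode the replicative helicase, lay between -0.47 (mcm5) and -0.69 (mcm4), and pcna, the sliding clamp, at -0.29. Summed over the list, the level was 9510 to 9803 TPM in GFP-positive libraries and 13266 to 13546 TPM in GFP-negative libraries. The widest gap was that of mcm7, at means of 1624 TPM in GFP-positive and 2470 TPM in GFP-negative cells. Next came the rrm2 gene ENSDARG00000020711, at 49.4 TPM in GFP-positive and 871 TPM in GFP-negative cells. Like most of the replication genes, ccna2, smc2 and most other condensin genes were lower. By contrast, ncaph, top2a, cdk1, the B-type cyclins and the genes grouped under central spindle and cytokinesis were higher. Other mitotic genes went the other way, with kif15, mad1l1, ska1, ckap5, dsn1 and gtse1 among those called lower. The 3 replication genes called higher were gins3, orc4 and the rrm2 gene ENSDARG00000078069. These directions only restate the calls given above, and a link to the phase of the cell cycle was not tested. On log2(TPM + 1), 31 replication genes were called lower and 1 higher, beside 27.9% and 17.8% of all genes on that scale.

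**Figure D5:**
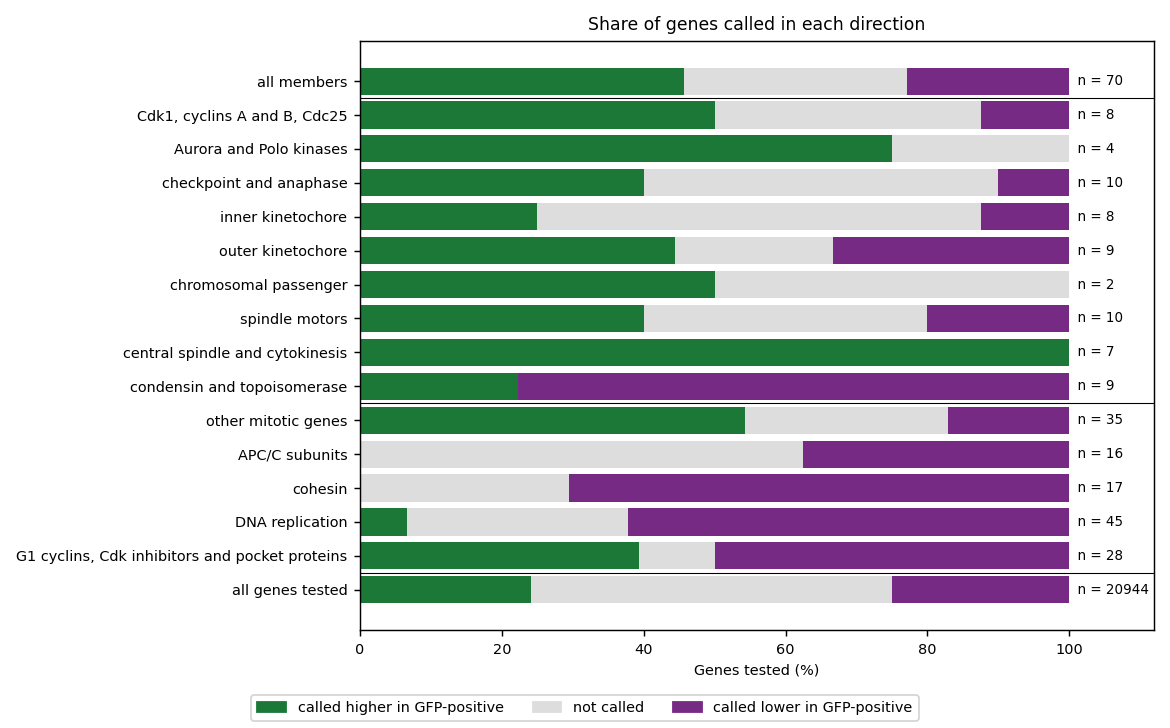
Share of the genes tested (x axis, %) called higher (green), not called (grey) and called lower (purple) in GFP-positive cells, for the 70 genes, 9 of their roles, 5 lists of related genes and all 20944 genes tested; n is the number tested. Central spindle and cytokinesis is called higher throughout, cohesin and APC/C subunits hold no gene called higher in this fit, and all genes tested show 24.1% higher and 25.0% lower.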

How the data were processed

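RNA-seq libraries (SMART-Seq cDNA) of 3 GFP-positive and 3 GFP-negative populations were analysed, grouped by the sample titles. Per the submitters' processing notes, the authors trimmed reads with Trimmomatic 0.35 and quantified them with kallisto 0.41. The build named is danRer10, and the annotation release is not given in the sources used here. The authors deposited estimated counts per transcript, not normalised, and TPM values, scaled by transcript length and library. Their comparison columns (effects, p- and q-values) were not used.

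Estimated counts were summed per Ensembl gene and rounded. The test was that of edgeR 4.0.16 (R 4.3.3), with TMM, filterByExpr, the quasi-likelihood F test and Benjamini-Hochberg adjustment over 20944 genes. A standard error was obtained as |log2 fold change|/√F. CPM are counts scaled by TMM-normalised library size. The common biological coefficient of variation was 0.0952, and 3 counts equal 0.0604 to 0.0739 CPM. The fit was also run on simulated libraries with known changes, drawn with the common biological variation of the main fit. The outcome is not given here. Each library counted as a replicate, as those of one population came from separate incrosses. Libraries of one population differed by more than sampling noise (chi-square per degree of freedom 5.27 to 20.3). That measure cannot separate differences between embryos from those of library preparation.

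Alternatives were DESeq2 1.42.0, limma 3.58.1 on log2 TPM, RLE factors, library size alone, no filter, other thresholds, leading transcripts, each library left out in turn and the replicate number as a block. The genes named were the core members of each role, the 5 largest changes called in each direction, the 2 most abundant members of each role and the genes matched by name only. Other members, named to complete a complex, and genes of the related lists were singled out after their values were seen. Members, roles and lists were chosen with earlier results of these data known, so no set test was run. Coordinates, sequences and promoter motifs were not analysed here.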

Additional observations from a re-analysis of the deposited data

How the results depend on the processing

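Calls of members ranged from 28 to 33 higher and from 8 to 16 lower when 1 library was left out, with a median log2 fold change of 0.12 to 0.16. In the same fits 20.9% to 24.3% of all genes were called higher and 21.3% to 25.5% lower. The fewest lower calls, 8, came without GFP-positive replicate 2, followed by 9, 10 and 11 without GFP-negative replicate 3, 2 and 1. An adjusted p below 0.01 left 25 higher and 9 lower, beside 19.2% and 19.7% of all genes. Each incross gave both populations, but no label says that the replicate number marks the incross. Deviations of same-numbered libraries correlated at -0.0103 to 0.00382, and no library correlated best with its own number. No shift shared by same-numbered libraries was seen, which cannot show that they were unpaired. With the replicate number as a block, 31 members were called higher and 10 lower, beside 23.4% and 24.2% of all genes. DESeq2, RLE factors and library size alone each gave 31 higher and 16 lower. Beside them stood 18.8% to 24.0% of all genes higher and 20.8% to 25.6% lower. The most abundant transcript alone gave 29 and 15 of 68, beside 22.5% and 22.8% of all genes.

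Scale mattered more. limma on log2(TPM + 1) called 16 members higher, beside 17.8% of all genes, with a median of -0.016 for the members. With log2(TPM + 0.1) it called 14, beside 16.4% of all genes, with a median of -0.018. Both lack a scaling between libraries. TMM factors of the TPM values were 0.928 to 1.01 in GFP-positive libraries and 1.02 to 1.07 in GFP-negative libraries. The cause of the difference was not tested. Under these pseudocounts of 1 and 0.1 the sign turned in 12 and 13 of the 70 genes, of which plk1 and tpx2 were called. They were plk1 (-0.017 in both), tpx2 (-0.077 in both), plk4 (-0.015 and -0.016), cdc25b (-0.065 in both), spc25 (-0.098 and -0.099) and cdc25d (-0.020 and -0.082), with ccna1 added at 0.1 (-0.12), and cenpi, bub1bb, espl1, kif4, kif2c and cenpl, none of which was called. With TMM-scaled TPM it turned for ttk (0.078) and kif11 (0.047). With the leading transcript alone it turned for cdc25b (-0.018), tpx2 (-0.26), ect2 (-0.21), cenpv (0.18) and cenpl. spc25, near 0, turned with RLE factors (-0.0026), DESeq2 (-0.0048) and the replicate block (-0.00074). Leaving out 1 library gave spc25 values of -0.079 to 0.12, cdc25d of -0.42 to 0.31, ccna1 of -0.42 to 0.76 and cenpv of -0.38 to 0.097, and signs also turned for cenpi, bub1bb, espl1 and kif18a, none of them called. Of these genes plk1, tpx2 and ect2 were called. Members under 2 TPM (birc5b, ccna1, cdc25d) are limited by depth.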

Other observations

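Regulators of the G1 phase, which lie outside the mitotic set, moved in both directions. Of 28 such genes tested, 11 were called higher and 14 lower in GFP-positive cells, beside 24.1% and 25.0% of all genes. The cyclin G gene ccng1 had 970, 999 and 1028 TPM in GFP-positive libraries, against 662, 671 and 675 TPM in GFP-negative libraries, and rose by 0.80 ± 0.044 on the log2 scale (SE, edgeR adjusted p = 2.14e-09). The Cdk inhibitor genes cdkn1ba and cdkn1ca rose by 0.66 ± 0.094 and 0.63 ± 0.063 (adjusted p = 3.98e-05 and 1.34e-06), and cdkn1bb and cdkn1cb were also called higher. Other Cdk inhibitor genes, cdkn2c and cdkn2d, were called lower, at -0.68 ± 0.20 and -1.68 ± 0.39 (adjusted p = 0.0107 and 0.00214), and cdkn1a was not called. The D-type cyclin gene ccnd2a had 73.2, 61.3 and 68.5 TPM in GFP-positive libraries, against 131, 125 and 133 TPM in GFP-negative libraries, and its log2 fold change was -0.90 ± 0.076 (adjusted p = 2.31e-07), while e2f7, a repressor of E2F target genes, was at -0.69 ± 0.064 (adjusted p = 5.96e-07). Of the other D-type cyclin genes, ccnd1 was called lower (-0.31), ccnd2b was called higher (0.54) and ccnd3 was not called. These genes were singled out after their values were seen.

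Within the 70 mitotic genes, GFP-positive replicate 3 stood apart from replicates 1 and 2 by transcript length. It was the highest of the GFP-positive libraries in 32 of 35 genes at or above the median length of 2312 bases and in 15 of 35 shorter genes. The median ratio of its TPM to the mean of replicates 1 and 2 was 1.14 in the longer genes and 0.983 in the shorter ones. Across all genes tested it was the highest of the 3 in 54.7%. As a description over 70 genes of the same libraries, Spearman's rho of that ratio with length was 0.66, while that of the log2 fold change with length was -0.16.

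The gene symbol rrm2, a subunit of ribonucleotide reductase, stood for 2 Ensembl genes that differed widely. ENSDARG00000020711 had 54.4, 41.0 and 52.8 TPM in GFP-positive libraries, against 822, 917 and 873 TPM in GFP-negative libraries (log2 fold change -4.48 ± 0.091, SE, edgeR adjusted p = 3.23e-14). ENSDARG00000078069 had 1113, 1086 and 1026 TPM in GFP-positive libraries, against 996, 961 and 957 TPM in GFP-negative libraries (log2 fold change 0.26 ± 0.057, SE, edgeR adjusted p = 0.00157). Whether the 2 genes share reads, which kallisto would divide between them, was not tested.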
